A study of Mus musculus with 6 samples.

Results

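The circadian clock genes described here are 10 genes taken by name from the deposited count table of 54532 genes: the activators Arntl (also called Bmal1), Clock and Npas2, the repressors Per1, Per2, Per3 and Cry1, the nuclear receptors Nr1d1 and Nr1d2, and the output factor Dbp. All 10 were found and passed the filter on low counts, among 15591 genes tested. Total RNA of inguinal white fat (iWAT), a depot under the skin near the hind limb, was sequenced from old mice kept in the cold for 7 days, with 3 libraries from mice given vehicle and 3 from mice given estrogen. Cold and old age are thus common to both groups. The labels give no strain, sex, age in months, estrogen dose or time of day of tissue collection, and do not say whether a library came from a single animal. P-values therefore measure the spread between these libraries, which may in part be technical.

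The mammalian clock is a transcriptional feedback loop that runs in nearly every cell, adipocytes included. ARNTL pairs with CLOCK, or with its paralogue NPAS2, and binds E-box sequences to drive Per, Cry, Nr1d and Dbp genes. PER and CRY proteins then repress that pair, and the REV-ERB proteins encoded by Nr1d1 and Nr1d2 repress Arntl, Npas2 and Clock through RORE sequences, which ROR receptors bind as activators. In peripheral tissues of mice the transcripts of Arntl and of Dbp accordingly peak at opposite times of day, and in white fat the clock is known to time lipid storage and release.

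In the deposited table, on mm10, the activators lie on separate chromosomes, Arntl (ENSMUSG00000055116) at chr7:113207465-113314126 on the plus strand, Clock (ENSMUSG00000029238) at chr5:76209868-76304792 on the minus strand and Npas2 (ENSMUSG00000026077) at chr1:39193731-39363236 on the plus strand. Of the repressors, the table places Per1 (ENSMUSG00000020893) at chr11:69095217-69109960 on the plus strand, Per2 (ENSMUSG00000055866) at chr1:91415982-91459324 on the minus strand, Per3 (ENSMUSG00000028957) at chr4:151003652-151044665 on the minus strand and Cry1 (ENSMUSG00000020038) at chr10:85131700-85185064 on the minus strand. It places Nr1d1 (ENSMUSG00000020889) at chr11:98767932-98775333 on the minus strand, Nr1d2 (ENSMUSG00000021775) at chr14:18204054-18239127 on the minus strand and Dbp (ENSMUSG00000059824) at chr7:45705088-45710203 on the plus strand. Counts are per whole gene, so exons and isoforms are not resolved.

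Promoter letters were looked up because the members fall into classes by the elements that drive them. Windows of 300 bases around a start site (250 before it and 50 after it, RefSeq on GRCm38.p6, the same assembly as mm10) were found for 9 of the 10 members, with no entry for Per2. The E-box CACGTG was present in the windows of Per1 and Cry1, against 7.15% of all 32851 windows. The D-box, bound by DBP and searched as TTATGTAA or TTACGTAA, was present in Per3, against 1.06% of windows. The RORE, searched as AGGTCA preceded by AANT, was present in Arntl, against 0.219%. Its core AGGTCA, which overlaps the longer motif, was in the windows of Arntl, Clock, Nr1d2 and Per1, against 16.3%. No member's window held the cyclic AMP response element TGACGTCA (1.79% of windows) or the estrogen response element, searched as GGTCA and TGACC with NNN between them (0.07%). A member was counted if any of its windows matched (13 windows for 9 members), whereas the percentages are shares of single windows. Both strands were searched, and a match is a description of letters, not of binding.

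The sequences below show those letters in the member with the largest difference between the groups (Per1), in the member whose profile lay nearest to that of Dbp (Per3), and at the RORE of Arntl. Capitals mark motif matches, each sequence runs 5′ to 3′ on the gene's strand, and the first pair covers the 250 bases before the start site. In Per1 (plus strand, chr11:69098699-69098948) the capitals are the E-box and then the AGGTCA core on the opposite strand. In Per3 (minus strand, chr4:151044666-151044915) they are a pair of D-boxes. The stretch of Arntl (plus strand, chr7:113207528-113207557) is 30 bases long, and its RORE begins at base 28 after the start site of the second RefSeq window.
Per1: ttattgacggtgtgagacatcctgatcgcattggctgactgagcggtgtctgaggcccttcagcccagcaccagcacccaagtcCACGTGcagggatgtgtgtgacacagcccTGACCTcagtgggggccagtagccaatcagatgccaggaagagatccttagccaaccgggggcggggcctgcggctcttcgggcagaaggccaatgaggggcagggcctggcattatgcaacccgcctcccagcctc
Per3: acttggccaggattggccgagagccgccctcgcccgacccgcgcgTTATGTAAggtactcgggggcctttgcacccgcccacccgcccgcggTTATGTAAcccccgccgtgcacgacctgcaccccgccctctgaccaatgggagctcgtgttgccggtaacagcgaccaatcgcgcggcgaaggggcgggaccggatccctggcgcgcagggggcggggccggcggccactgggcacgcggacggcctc
Arntl: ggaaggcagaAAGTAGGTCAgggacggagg

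The depth was similar across libraries, with total counts of 16046601 to 20736771. Coverage of the members ran from 16 counts for Npas2 in estrogen replicate 3, which is low, to 4673 counts for Nr1d1 in vehicle replicate 3. Levels are given as CPM (a gene's share of the library's counts, after the TMM scaling that aligns most genes between libraries). Where 3 values stand in a row, they are those of replicates 1, 2 and 3. Estrogen replicate 3 stood apart in several ways: its Ucp1 level was 10.2 CPM, against 333 to 1754 CPM in the other 5 libraries, and it had the lowest summed progenitor, fibroblast and macrophage markers. The fold changes of the members are given with and without it where they move by over 1.5 times.

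Compared per gene length, the members covered a wide range of levels. In the vehicle group Nr1d1, which encodes REV-ERB alpha, had the highest level, at 54.6 ± 9.90 RPKM (CPM divided by gene length in kilobases; SD, n = 3). Nr1d2, which encodes REV-ERB beta, was at 11.1 ± 1.27 RPKM and Dbp at 10.7 ± 2.11 RPKM. Per1 (5.82 ± 2.96 RPKM), Clock (4.23 ± 0.164), Cry1 (3.81 ± 0.582) and Per3 (3.58 ± 0.653) followed. The lowest were Arntl (2.55 ± 0.744 RPKM), Per2 (2.09 ± 0.339) and Npas2 (1.6 ± 0.634). In this order only Nr1d1 was separated from its neighbour, Nr1d2. Every later neighbouring pair had vehicle libraries whose ranges overlapped.

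Estrogen-treated iWAT showed lower means of the activators and higher means of their targets, but most of these differences shrank or turned without estrogen replicate 3, and no member passed the test over all genes. Arntl, Clock and Npas2 had negative log2 fold changes, and Per1, Per2, Per3, Cry1, Nr1d1, Nr1d2 and Dbp positive ones. The median over the 10 members was 0.33, against 0.0025 over all tested genes. The 7 positive members of 10 stand beside 50.3% of all tested genes with a positive value. Estrogen replicate 3 had the lowest level of each of the 3 activators and the highest level of each of the other 7 members. Estrogen replicate 2 lay at the opposite end for many of them, with the lowest Per2, Per3, Nr1d2 and Dbp of the 6 libraries.

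By edgeR's quasi-likelihood test, 0 of the 10 members passed an adjusted p of 0.05, where the share of all tested genes that passed was also 0%. At an unadjusted p under 0.05, 1 member (Per1) was higher and 0 lower, against 9.49% of all tested genes higher, 10.9% lower and 20.4% in either direction. The groups did not overlap for Per1 (higher) and Clock (lower), 2 of 10 members, against 12.8% of all tested genes higher, 14.7% lower and 27.5% in either direction. DESeq2 called 1 member, Per1 (adjusted p = 0.0229, DESeq2), as higher, against 2.62% of the genes to which it gave an adjusted p called higher, 3.14% lower and 5.77% in either direction. With 10 members, none of these counts stands clear of the share among all genes.

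**Figure D1:**
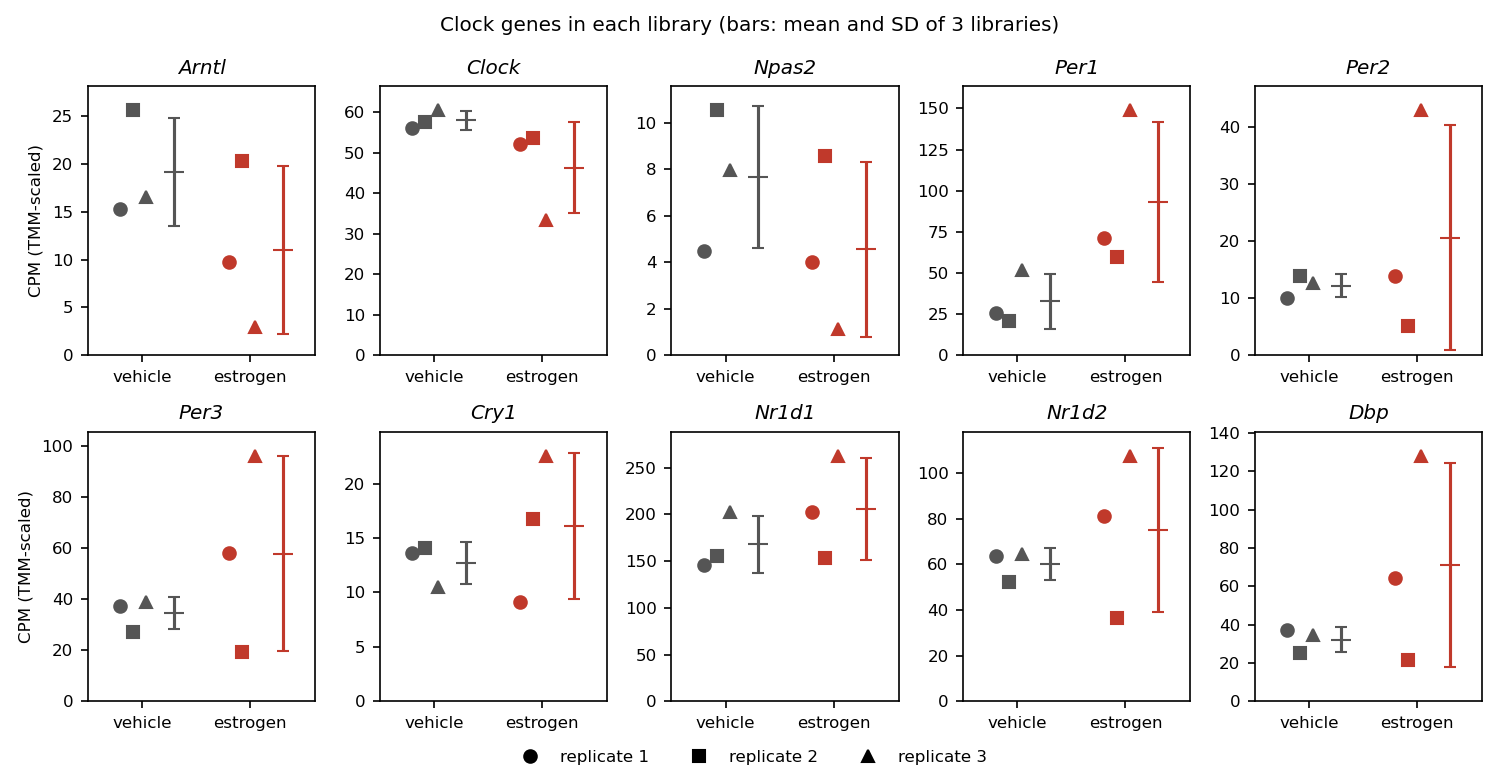
Level of each of the 10 clock genes (y axis, TMM-scaled CPM, starting at 0) in 3 vehicle and 3 estrogen libraries, with a marker shape for each replicate and a bar for the mean and SD. Estrogen replicate 3 is the lowest point for Arntl, Clock and Npas2 and the highest for the other 7 genes.

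Among the activators, Arntl, the subunit without which the loop does not run, was at 15.3, 25.6 and 16.6 CPM with vehicle and at 9.74, 20.4 and 2.99 CPM with estrogen. Estrogen replicates 1 and 3 lay under all vehicle libraries, while estrogen replicate 2 lay within the vehicle range. Its log2 fold change was -0.80 ± 0.59 (SE; edgeR quasi-likelihood, adjusted p = 0.456). It was -1.58 without estrogen replicate 2 and -0.35 without estrogen replicate 3.

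Npas2, the paralogue that can take the place of Clock, was at 4.47, 10.5 and 7.98 CPM with vehicle and at 3.99, 8.58 and 1.11 CPM with estrogen. The 6 libraries fell in the same order as for Arntl, with vehicle replicate 2 highest and estrogen replicate 3 lowest, and the groups overlapped. Npas2 differed by a log2 fold change of -0.75 ± 0.65 (edgeR, adjusted p = 0.532), with -1.56 without estrogen replicate 2 and -0.29 without estrogen replicate 3. Counts of Npas2 per count of Arntl ran from 0.291 to 0.482 in the vehicle libraries and from 0.372 to 0.421 in the estrogen libraries. This ratio thus moved 1.65-fold with vehicle and 1.13-fold with estrogen, while Arntl itself spanned 6.60-fold across the estrogen libraries.

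Clock, which contains the pseudogene Ube2n-ps1 (15 to 24 counts) and whose transcript is known to cycle weakly or not at all in many tissues, was at 56.0, 57.5 and 60.5 CPM with vehicle and at 52.2, 53.6 and 33.4 CPM with estrogen. All 3 estrogen libraries lay under the vehicle libraries, with estrogen replicates 1 and 2 close below them and replicate 3 far below. For Clock the log2 fold change was -0.32 ± 0.19 (edgeR, adjusted p = 0.351), and without estrogen replicate 3 it was -0.13. The median log2 fold change of the 3 activators was -0.75, with -0.29 without estrogen replicate 3 and -1.56 without estrogen replicate 2.

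Per1, a repressor gene that responds quickly to cyclic AMP and glucocorticoid signals as well as to the clock, differed most between the groups. It was at 25.6, 20.9 and 51.8 CPM with vehicle and at 71.3, 59.5 and 149 CPM with estrogen. All 3 estrogen libraries lay above all 3 vehicle libraries, with vehicle replicate 3 the nearest to them. Per1 had a log2 fold change of 1.51 ± 0.45 (SE; edgeR quasi-likelihood, unadjusted p = 0.0123, adjusted p = 0.207). It ran from 0.99 without estrogen replicate 3 to 2.0 without vehicle replicate 3, and its sign was positive in every fit made.

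Per2 did not follow Per1. It was at 10.1, 14.0 and 12.6 CPM with vehicle and at 13.9, 5.11 and 42.9 CPM with estrogen. Estrogen replicate 1 lay among the vehicle libraries, replicate 2 under them and replicate 3 above them, an 8.25-fold span within the estrogen group against 1.38-fold within the vehicle group. The log2 fold change of 0.75 ± 0.66 (edgeR, adjusted p = 0.531) turned to -0.36 without estrogen replicate 3. Counts of Per1 per count of Per2 were 2.54, 1.5 and 4.10 with vehicle and 5.13, 11.7 and 3.47 with estrogen. Estrogen replicate 2, with the lowest Per2 of the 6 libraries, had a Per1 level (59.5 CPM) slightly above that of the highest vehicle library (51.8 CPM, replicate 3).

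Per3, which lies within the same-strand gene Camta1 (117 to 172 counts) and is a period gene that is dispensable for the core loop, was at 37.1, 27.2 and 38.8 CPM with vehicle and at 58.1, 19.3 and 95.8 CPM with estrogen. Estrogen replicates 1 and 3 lay above the vehicle libraries and replicate 2 below them. Per3 had a log2 fold change of 0.75 ± 0.50 (edgeR, adjusted p = 0.411), and it was 0.17 without estrogen replicate 3 and 1.16 without estrogen replicate 2. Cry1, the cryptochrome that is known to peak later than the Per genes, was at 13.6, 14.1 and 10.5 CPM with vehicle and at 9.12, 16.8 and 22.5 CPM with estrogen. Here estrogen replicate 1 was the lowest library and estrogen replicate 2 the second highest, an order not seen for Per3 or Dbp. The log2 fold change of Cry1 was 0.34 ± 0.32 (edgeR, adjusted p = 0.56), with 0.03 without estrogen replicate 3 and 0.61 without estrogen replicate 1. The median of the 4 repressors was 0.75, and 0.0996 without estrogen replicate 3.

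Nr1d1, the REV-ERB gene with the higher level, was at 146, 155 and 203 CPM with vehicle and at 203, 153 and 262 CPM with estrogen. The groups overlapped, with estrogen replicate 1 level with vehicle replicate 3. Its log2 fold change was 0.29 ± 0.23 (edgeR, adjusted p = 0.477), and 0.08 without estrogen replicate 3 and 0.47 without estrogen replicate 2. The 3′ end of Nr1d1 overlaps Thra, a thyroid hormone receptor gene on the opposite strand, over 1075 bases, and as the strand setting of the counting is not given, reads there cannot be told apart. Thra had a log2 fold change of -0.22.

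Nr1d2 was at 63.8, 52.2 and 64.3 CPM with vehicle and at 81.3, 36.3 and 107 CPM with estrogen. As for Per3, estrogen replicates 1 and 3 lay above the vehicle libraries and replicate 2 below them. The log2 fold change of 0.32 ± 0.35 (edgeR, adjusted p = 0.623) became -0.032 without estrogen replicate 3, and was 0.65 without estrogen replicate 2.

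Dbp, an output factor that the ARNTL and CLOCK pair drives directly and whose transcript is among the most strongly cycling in many tissues, was at 37.1, 25 and 34.3 CPM with vehicle and at 64.1, 21.7 and 128 CPM with estrogen. Estrogen replicates 1 and 3 lay above the vehicle libraries and estrogen replicate 2 below them. Dbp had a log2 fold change of 1.15 ± 0.55 (SE; edgeR quasi-likelihood, adjusted p = 0.28), and it was 0.42 without estrogen replicate 3 and 1.58 without estrogen replicate 2. Dbp overlaps Sphk2, a sphingosine kinase gene on the opposite strand, over 737 bases. Sphk2 had a log2 fold change of 0.02.

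**Figure D2:**
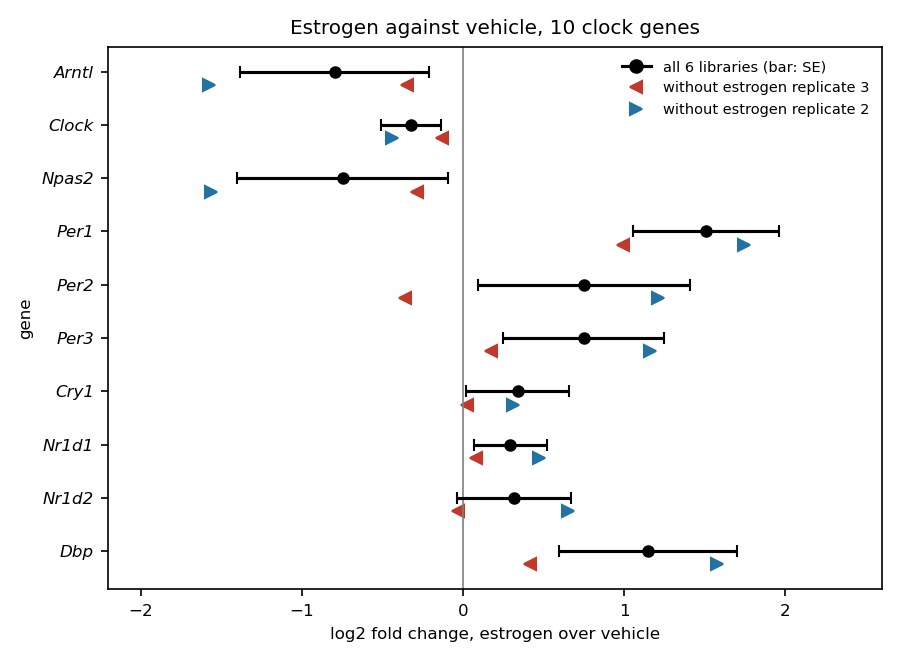
Log2 fold change of estrogen over vehicle (x axis) for each clock gene (y axis) from edgeR, with all 6 libraries (black, bar for the SE) and without estrogen replicate 3 or 2 (triangles). Leaving out estrogen replicate 3 moves every gene toward 0 and Per2 and Nr1d2 past it, and Per1 stays at 0.99.

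Ratios between members within a library do not depend on how libraries are scaled, and show how far the activators and their targets stood apart in each. Counts of Dbp per count of Arntl were 2.42, 0.978 and 2.07 with vehicle and 6.58, 1.07 and 42.7 with estrogen. The ratio spanned 2.47-fold among vehicle libraries and 40-fold among estrogen libraries. Estrogen replicate 2 lay next to vehicle replicate 2 at the low end, and estrogen replicates 1 and 3 lay above all vehicle libraries. The log2 ratio was 0.76 ± 0.70 with vehicle and 2.74 ± 2.66 with estrogen (SD, n = 3), so that the difference of the means, 1.98, was smaller than the SD of the estrogen group. Without estrogen replicate 3 that difference was 0.64, and without estrogen replicate 2 it was 3.30.

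Per3 and Nr1d2 placed the libraries likewise against Arntl. Counts of Per3 per count of Arntl were 2.42, 1.06 and 2.34 with vehicle and 5.96, 0.949 and 32.0 with estrogen. Counts of Nr1d2 per count of Arntl were 4.16, 2.04 and 3.88 with vehicle and 8.34, 1.78 and 35.8 with estrogen. Cry1 departed from it, with 0.887, 0.549 and 0.634 counts per count of Arntl with vehicle and 0.936, 0.823 and 7.51 with estrogen, so that estrogen replicates 1 and 2 lay near each other. These ratios share Arntl as their denominator and are not independent of each other. By contrast, counts of Per3 per count of Dbp stayed between 0.999 and 1.13 with vehicle and between 0.750 and 0.906 with estrogen. This ratio spanned only 1.13-fold with vehicle and 1.21-fold with estrogen, yet it was lower in every estrogen library than in every vehicle library. The other ratios given here overlapped between the groups. Among single tested genes, 27.5% did not overlap, and the share among ratios of other genes was not computed.

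**Figure D3:**
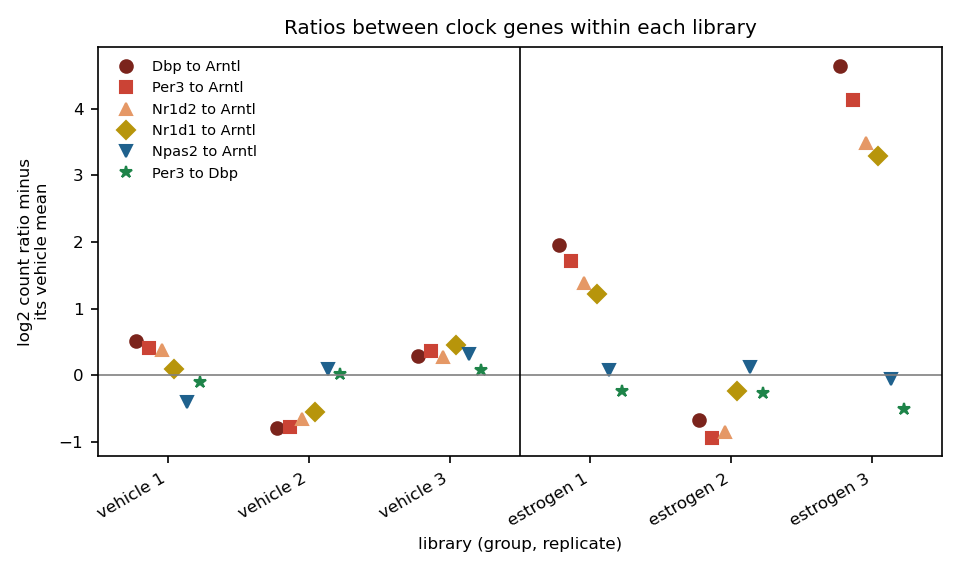
Log2 of the count ratio between pairs of clock genes within each library, minus the mean of the 3 vehicle libraries (y axis), for each library (x axis). Ratios of Dbp, Per3, Nr1d2 and Nr1d1 to Arntl are high in estrogen replicates 1 and 3 and low in vehicle replicate 2 and estrogen replicate 2, and the ratios of Npas2 to Arntl and of Per3 to Dbp lie nearer to 0.

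With all 6 libraries, for each of the 10 members the log2 range over the estrogen libraries exceeded that over the vehicle libraries, which held for 62.9% of the 12799 genes whose mean log2 CPM reached 1. Without estrogen replicate 3 it held for 6 members and 31% of those genes, the exceptions being Clock, Npas2, Per1 and Nr1d1, where a range over 2 estrogen libraries stood against one over 3 vehicle libraries. Without estrogen replicate 2 it held for 8 members, with Per1 and Nr1d1 the exceptions, and 45% of genes. With all libraries, the log2 range within the estrogen group was 3.04 for Per2, 2.83 for Npas2, 2.72 for Arntl, 2.55 for Dbp and 2.30 for Per3, against a median of 0.42 over those genes. A wider range in that group than that of Per2 was seen in 1.09% of genes, than that of Npas2 in 1.36%, than that of Arntl in 1.55%, than that of Dbp in 1.82% and than that of Per3 in 2.47%. Clock (0.68) and Nr1d1 (0.77) were less unusual, with 27.3% and 22.5% of genes wider. In the vehicle group the same ranges were 0.47 for Per2, 1.22 for Npas2, 0.73 for Arntl, 0.57 for Dbp and 0.51 for Per3, against a median of 0.34. Per1 was as wide in the vehicle group (1.30) as in the estrogen group (1.32).

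The genes whose profiles over the 6 libraries lay nearest to Dbp, by the root mean square difference of log2 CPM centred on each gene's mean, included 2 clock genes among the first 5. Of 11894 genes compared, Per3 was the nearest (0.20 log2 units), followed by Syne3 (0.24), Tef (0.24), AI838599 (0.25) and Tgtp1 (0.28). Tef encodes a transcription factor of the same PAR bZIP family as Dbp. Nr1d2 ranked 35, Per2 45, Nr1d1 431, Per1 523, Cry1 5018 and Clock 9765 among these genes, and Arntl ranked 11659 and Npas2 11684, near the far end.

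The nearest genes to Arntl were of a different kind. They were Folr2 (0.16 log2 units), Cd68 (0.21), Hk3 (0.21), Npas2 (0.22) and Ctss (0.22), of which Folr2, Cd68 and Ctss are known as macrophage genes. Clock ranked 1429 in this order, and Per1, the farthest member, 11818. Macrophage markers, like the activators, had lower means with estrogen. All 5 of the fixed list (Adgre1, Cd68, Mrc1, Csf1r and Lyz2) had negative log2 fold changes, with a median of -1.22. Their summed level was 1777 to 2574 CPM with vehicle and 1117, 1373 and 400 CPM in estrogen replicates 1, 2 and 3. None of them was at 0 in any library. Progenitor and fibroblast markers had lower means too, with 6 of 6 negative and a median of -1.55. Their summed level was 11513 to 33001 CPM with vehicle and 5239, 8060 and 1045 CPM in estrogen replicates 1, 2 and 3. In estrogen replicate 2 both sums lay under every vehicle library, and Arntl (20.4 CPM) lay within its vehicle range. Cd68 (112 CPM) in that library also lay within its vehicle range, 110 to 141 CPM. Adgre1, Mrc1, Csf1r and Lyz2 lay under theirs. From estrogen replicate 1 to 2, Arntl, Npas2, Col1a1, Col3a1 and all 5 macrophage markers rose, and Pdgfra, Dpp4, Pi16 and Dcn fell. The part of these cell types in the levels of Arntl and Npas2 was not tested. In bulk tissue, fewer cells of a type and less RNA per cell cannot be told apart.

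Adipocyte markers (Adipoq, Plin1, Lep, Cidec, Fabp4 and Lipe), which define the tissue, were abundant in every library, at 11656 to 15439 CPM in sum with vehicle and 16466, 16928 and 25166 CPM in estrogen replicates 1, 2 and 3. Of these 6, 5 had positive log2 fold changes (median 0.50) and Lep, the leptin gene, a negative one (-0.73), with 28.6 CPM in estrogen replicate 3 against 134 to 214 CPM in the other libraries. Thermogenic adipocyte markers summed to 678 to 1537 CPM with vehicle and to 1255, 2891 and 348 CPM with estrogen. Estrogen replicate 2, lowest in Dbp, Per3 and Nr1d2, was thus the highest in this sum, and in each of Ucp1, Cidea, Cox8b, Elovl3 and Dio2. Estrogen replicate 3 was the lowest in the sum, in Ucp1 and in Cox8b. Cidea and Elovl3 were lowest in vehicle replicate 3, and Dio2 in vehicle replicate 2. Endothelial markers lay at 382 to 527 CPM with vehicle and 463 to 617 CPM with estrogen. B cell markers stood at 121 and 77.0 CPM in estrogen replicates 1 and 3, against 2.24 to 4.25 CPM in the other 4 libraries, so the same pair of libraries that was high in Dbp was high in B cell markers. T cell markers stood at 39.8 and 5.78 CPM in the same pair, against 1.32 to 1.90 CPM elsewhere. Skeletal muscle markers reached 6345 CPM in estrogen replicate 1, against 2.58 to 58.9 CPM elsewhere, with some of the 5 at 0 in vehicle replicate 1 and estrogen replicates 2 and 3. Neutrophil markers summed to 152 CPM in vehicle replicate 1, against 23.3 to 34.8 CPM elsewhere. Mammary epithelial markers were at or near 0, with a summed level of at most 0.467 CPM. The part of any of these in the clock pattern was not tested.

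**Figure D4:**
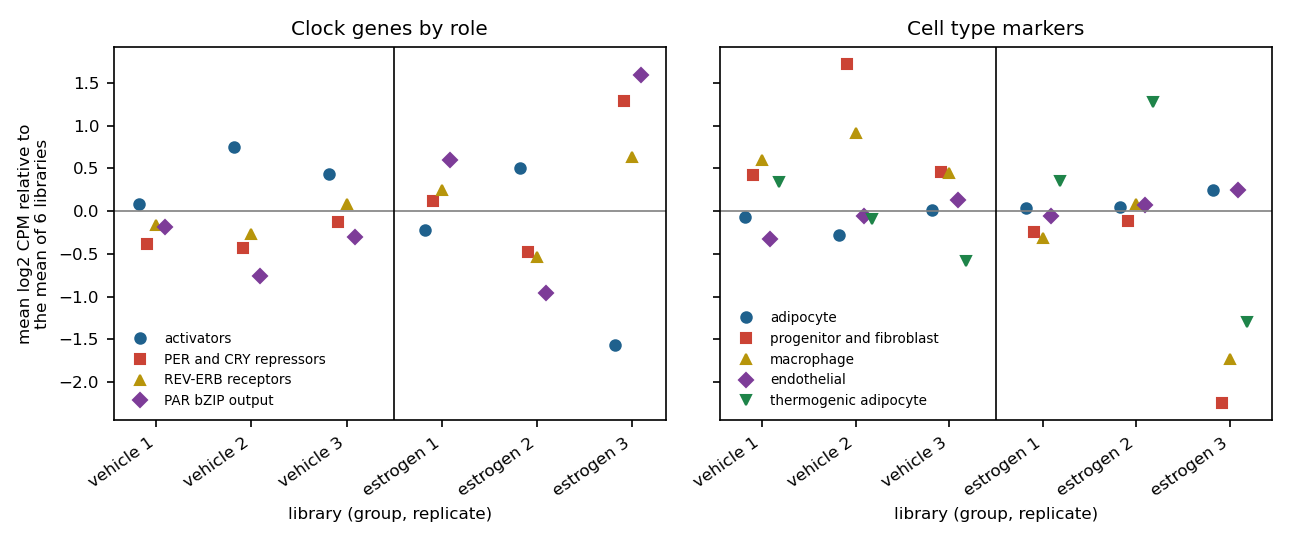
Mean log2 CPM relative to the mean of the 6 libraries (y axis) for the clock genes grouped by role (left) and for lists of cell type markers (right) in each library (x axis). In estrogen replicate 3 the activators lie at -1.57 beside macrophage markers at -1.73 and progenitor and fibroblast markers at -2.25, while adipocyte and endothelial markers lie at 0.25 and 0.24.

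Of 10 other genes of the loop, all tested, 7 had positive and 3 negative log2 fold changes (median 0.29), with 0 past the adjusted threshold by edgeR, 1 higher and 1 lower at an unadjusted p under 0.05 (20.4% of all tested genes), and 1 higher by DESeq2 (2.62%). The groups did not overlap for 1 gene higher (Ciart) and 1 lower (Rorb), against 27.5% of all tested genes in either direction. Cry2, the second cryptochrome gene, was at 42.9, 49.9 and 41.9 CPM with vehicle and at 53.4, 45.7 and 68.1 CPM with estrogen. Estrogen replicate 2 lay within the vehicle range, and the log2 fold change was 0.31 ± 0.17 (edgeR, adjusted p = 0.32). It was 0.14 without estrogen replicate 3.

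Ciart, an E-box driven repressor of the ARNTL and CLOCK pair, was at 0.762, 0.708 and 0.954 CPM with vehicle and at 2.59, 1.11 and 11.4 CPM with estrogen. Its log2 fold change was 2.62 ± 0.83 (edgeR, adjusted p = 0.207; DESeq2, adjusted p = 0.0257), and it was 1.2 without estrogen replicate 3. The groups did not overlap, though estrogen replicate 2 lay close to the vehicle libraries, with 17 counts against 14 to 22. Rorb, a low-level ROR gene, was at 2.17 to 3.64 CPM with vehicle and at 1.30, 1.51 and 0.209 CPM with estrogen (3 counts in estrogen replicate 3). Its log2 fold change was -1.48 ± 0.60 (edgeR, adjusted p = 0.233), and it was -1.01 without estrogen replicate 3. Tef was at 76.2 to 105 CPM with vehicle and at 159, 76.7 and 263 CPM with estrogen, with a log2 fold change of 0.83 ± 0.40 (edgeR, adjusted p = 0.281), and 0.33 without estrogen replicate 3.

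Nfil3 and Hlf were chosen for naming after their values were seen. Nfil3, a bZIP repressor that competes with DBP for D-boxes and is itself under RORE control, was at 25.2, 20.4 and 15.7 CPM with vehicle and at 9.64, 19.1 and 3.90 CPM with estrogen. Like Arntl, it was lowest in estrogen replicates 3 and 1. Hlf, another PAR bZIP gene, was at 10.6 to 13.5 CPM with vehicle and at 24.1, 8.12 and 26.3 CPM with estrogen, and thus placed the libraries on the same sides as Dbp.

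**Figure D5:**
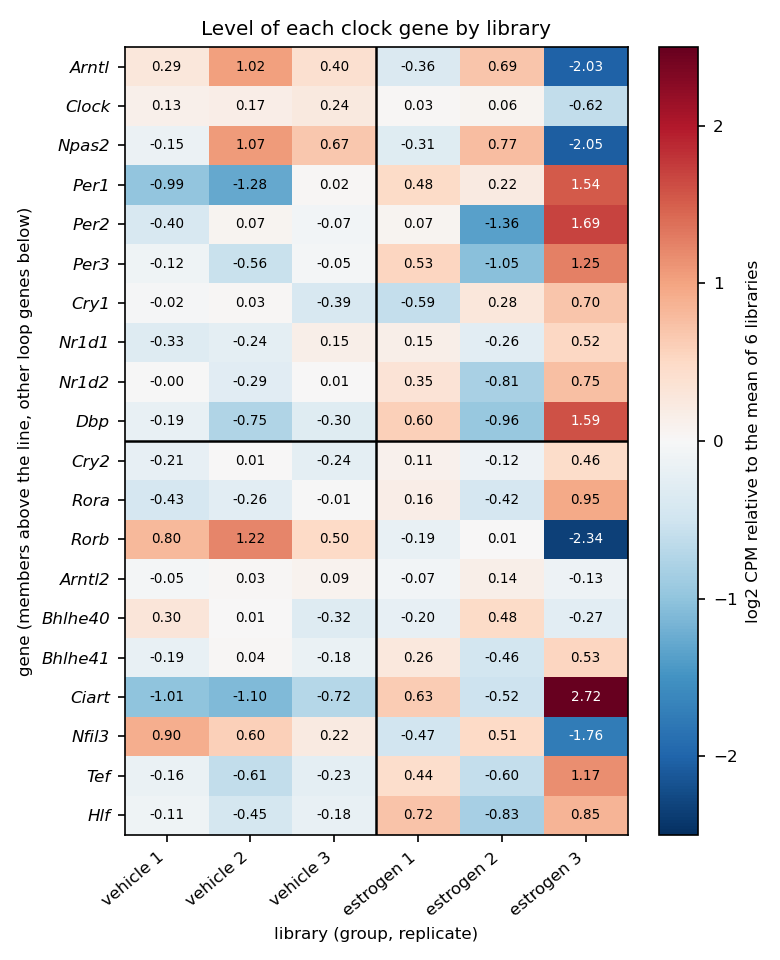
Log2 CPM of each gene relative to its mean over the 6 libraries (colour and printed value), with the 10 clock genes above the line and 10 other loop genes below it (y axis) in each library (x axis). In estrogen replicate 3, Arntl, Npas2, Rorb and Nfil3 lie between -2.34 and -1.76 while Dbp, Per1, Per2 and Ciart lie between 1.54 and 2.72.

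Of 14 kinases, ubiquitin ligases and cofactors that act on clock proteins, 9 were positive and 5 negative (median 0.06), with 0 past the adjusted threshold by edgeR or DESeq2 and 1 at an unadjusted p under 0.05, against 20.4% of all tested genes. That member was Usp2, a deubiquitinase and itself a strongly cycling transcript, at 10.8 to 12.3 CPM with vehicle and at 21.3, 11.4 and 27.4 CPM with estrogen (log2 fold change 0.79 ± 0.30; edgeR, adjusted p = 0.218). Without estrogen replicate 3 its log2 fold change was 0.50. Timeless (-0.38), Btrc (0.27), a subunit of the ligase that marks PER proteins, and Gsk3b (-0.22), a kinase, followed by size of p. Without estrogen replicate 1, Btrc was at 0.17 and Gsk3b at -0.35.

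Of 9 widely rhythmic output genes, Usp2 among them, 6 were positive and 3 negative (median 0.06), with 2 higher and 1 lower at an unadjusted p under 0.05, against 20.4% of all tested genes, and 0 past the adjusted threshold by edgeR. The groups did not overlap for 1 gene higher and 1 lower, against 27.5% of all tested genes in either direction. DESeq2 called 1 of them lower, against 3.14% of the genes to which it gave an adjusted p. Klf10, a zinc finger factor gene that responds to glucose and to the clock, was at 54.7, 68.3 and 57.8 CPM with vehicle and at 36.4, 42.4 and 34.7 CPM with estrogen. The groups did not overlap, and the log2 fold change was -0.67 ± 0.14 (edgeR, adjusted p = 0.207; DESeq2, adjusted p = 0.0127). Nampt, the rate-limiting enzyme of NAD salvage and an E-box target, was at 137, 103 and 105 CPM with vehicle and at 156, 151 and 204 CPM with estrogen, again without overlap (0.57 ± 0.18; edgeR, adjusted p = 0.207). Both kept their sign in every fit made, and in estrogen replicate 2, where Dbp was lowest, Nampt still lay above every vehicle library. Klf9 (0.42 ± 0.23) is also on this list.

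Since Per1 also answers to glucocorticoids, a list of 10 glucocorticoid targets was set beside it. Of the 9 tested, Per1 included, 7 were positive and 2 negative (median 0.40), with 0 past the adjusted threshold by edgeR and Per1 alone at an unadjusted p under 0.05, against 20.4% of all tested genes. Klf9 (0.42 ± 0.23), Sgk1 (0.54 ± 0.30) and Cdkn1a (-0.42 ± 0.26) were next by size of p. Without estrogen replicate 3 these were 0.19 for Klf9, 0.35 for Sgk1 and -0.25 for Cdkn1a. Sgk1 was at 0.30 without vehicle replicate 1 and 0.87 without vehicle replicate 3, and Cdkn1a at -0.77 without estrogen replicate 2. Fkbp5, named after its value was seen, as was Tsc22d3, was at 0.62 ± 0.46, and Tsc22d3, which encodes the glucocorticoid-induced leucine zipper protein, at 0.0034 ± 0.17. Mt2 was too low to test.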

How the data were processed

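For each gene the deposited table holds unnormalized counts of reads in 6 libraries, aligned with HISAT2 and counted with featureCounts on mm10, per the submitters' processing notes. The strand setting, the annotation and the tool versions are not stated in what was used here. Groups and replicate numbers came from the sample titles, and columns were matched through the sample descriptions. The gene length column of the same table was used for RPKM. Counts were scaled with TMM, filtered with filterByExpr (15591 of 54532 genes kept) and tested with edgeR's quasi-likelihood F test, Benjamini-Hochberg adjusted over all tested genes, with a threshold of 0.05 and no replicate block. Log2 CPM used a prior count of 2. Ratios between members used raw counts. Software was edgeR 4.0.16 with limma 3.58.1 under R 4.3.3, and DESeq2 1.42.0 as an alternative. The test was run on simulated counts that had the same spread in both groups. That run does not show how the test performs where a library stands apart, as estrogen replicate 3 did. Libraries of a group differed by more than sampling noise (chi-square per degree of freedom of 45.9 to 98.1), so none was counted as a duplicate. A count of 3, the detection floor, equals 0.145 to 0.187 CPM.

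The members and lists were chosen with earlier results of these data known. Named genes were all members, up to 4 genes of smallest p in each list of other clock genes, the 5 nearest genes to Arntl and to Dbp, and genes overlapping a member. Nearest genes were sought where the mean log2 CPM reached 1, leaving out predicted gene models. Alternatives covered scaling, filters, DESeq2, limma-voom, library quality weights, the replicate number as a block, and each library left out in turn. A gene of the list of other loop genes is not reported here and was left out of that list's counts.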

Additional observations from a re-analysis of the deposited data

How the results depend on the processing

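The count of members past the threshold was 0 in each edgeR and limma fit, with any library left out, and 1 by DESeq2, which called 844 genes in all (384 higher and 460 lower). With a library left out, edgeR called 0 to 13 genes in all, the 13 without estrogen replicate 2. At an unadjusted p under 0.05, 5 members were higher and 2 lower without estrogen replicate 2 (19.5% of all genes in that fit), where 1 and 0 were with all libraries (20.4%). That count was 2 higher and 0 lower by DESeq2 (21.8% of genes), without a low-count filter (14.7%) and without estrogen replicate 1 (20.2%), and 1 higher and 1 lower with the replicate block (21.2%). The count of members with a wider range in estrogen than in vehicle libraries ran from 6 to 10 with a library left out, an alternative chosen after seeing the data. Over the fits that left out a library, the median log2 fold change ran from -0.0029 to 0.56 for the 10 members, from -1.56 to -0.29 for the activators and from 0.0996 to 1.19 for the Per and Cry1 repressors. Estrogen replicates 2 and 3 gave the ends of each of these ranges. With library quality weights in limma-voom the median of the members was 0.044 and Per2 was at -0.20. With a library left out, Per2 ran from -0.36 to 1.21 and Nr1d2 from -0.032 to 0.65, both lowest without estrogen replicate 3 and highest without estrogen replicate 2. The cause of these shifts was not tested. The other members kept their sign in every fit. By DESeq2, Per1 (1.51), Ciart (2.63) and Klf10 (-0.66) passed the threshold that they missed by edgeR. The RLE and upper quartile scalings put the median of all genes at 0.012 and 0.044.

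Same-numbered libraries of the groups share only the number in their titles, and the second pair carries unlike numbers in the submitters' own column names: their deviations from the group means correlated across genes at -0.12, 0.16 and 0.29, and vehicle replicate 1 correlated best with estrogen replicate 2 (0.17). With the replicate block, 0 members and 0 genes were called and the median of the members was 0.27. Medians by role with the block were -0.97 for the activators, 0.42 for the repressors, 0.23 for the REV-ERB genes and 0.84 for Dbp. Precision is limited by 3 libraries a group rather than by counts, except for Npas2, Ciart and Rorb, which had 16, 14 and 3 counts in their lowest libraries.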
